A study of Mus musculus with 6 samples.

Results

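Costameres are the rib-like assemblies that tie the Z-discs of the outermost myofibrils of a muscle fibre to its membrane and to the basement membrane outside. The genes described here encode 10 proteins of that linkage: the anchor proteins talin 1 (Tln1), vinculin (Vcl) and filamin C (Flnc), the integrin subunits Itgb1 and Itga7, the laminin chain Lama2, desmin (Des), dysferlin (Dysf), caveolin 3 (Cav3) and calpain 3 (Capn3). They were chosen as a list of genes, with earlier results of these data known. Every probe set whose only annotated symbol was 1 of them was taken, which gave 18 of the 22690 probe sets of the array and 10 of the 12394 genes that probe sets with 1 symbol name. The samples were 3 superficial masseters, a jaw-closing muscle, and 3 tibialis anteriors, a limb muscle, all from normal adult female C57Bl/6 mice aged 6 months, with 1 array per sample. No treatment or genetic change was applied in either muscle, and neither separate mice nor a mouse shared by equal replicate numbers is named in the labels. The limma p-values therefore measure the scatter left between these samples once the replicate number is fitted. That scatter is moderated with information from all probe sets, and some of it may be technical.

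In the integrin branch of the costamere, laminin outside the fibre binds an integrin pair in the membrane, and talin couples the tail of the integrin to actin, where vinculin reinforces the joint under load. Filamin C cross-links actin near the membrane and the Z-disc, and desmin filaments connect Z-discs to one another and to the costamere. Dysferlin acts in resealing of the torn membrane, caveolin 3 forms the caveolae of muscle fibres, and calpain 3 is a muscle protease bound to titin. Mutations in the human genes of dysferlin and calpain 3 cause limb-girdle muscular dystrophies, and loss of the laminin chain causes a congenital one.

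Talin 1 transcript was lower in the masseter, and it was the single member to pass the test. Caveolin 3 lay at the other end of the range, 1.90-fold higher in the masseter by estimate, and did not pass. The integrin subunits and the laminin chain were estimated lower in the masseter by most probe sets, desmin was estimated higher, and none of them passed. Values are the authors' linear signal intensities, and each difference is the log2 signal of the masseter less that of the tibialis anterior, with its SE, from limma fitted over all probe sets with the replicate number as a block (n = 3 per muscle). Adjusted p-values are Benjamini-Hochberg values over 13576 probe sets, with a threshold of 0.05. Of the 18 probe sets, 14 reached the filter level, a signal of 28.6, and these covered all 10 genes. In total 1 of the 14 passed, lower in the masseter, where 1.18% of all probe sets tested passed, 0.56% higher and 0.619% lower in the masseter. At an unadjusted p under 0.05 there were 2 higher and 3 lower among the 14, against 6.93% and 6.12% of all probe sets tested. The median difference of the 14 was -0.27, and that of all probe sets was 0.02. Some of the 14 read the same gene and are not independent.

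**Figure D1:**
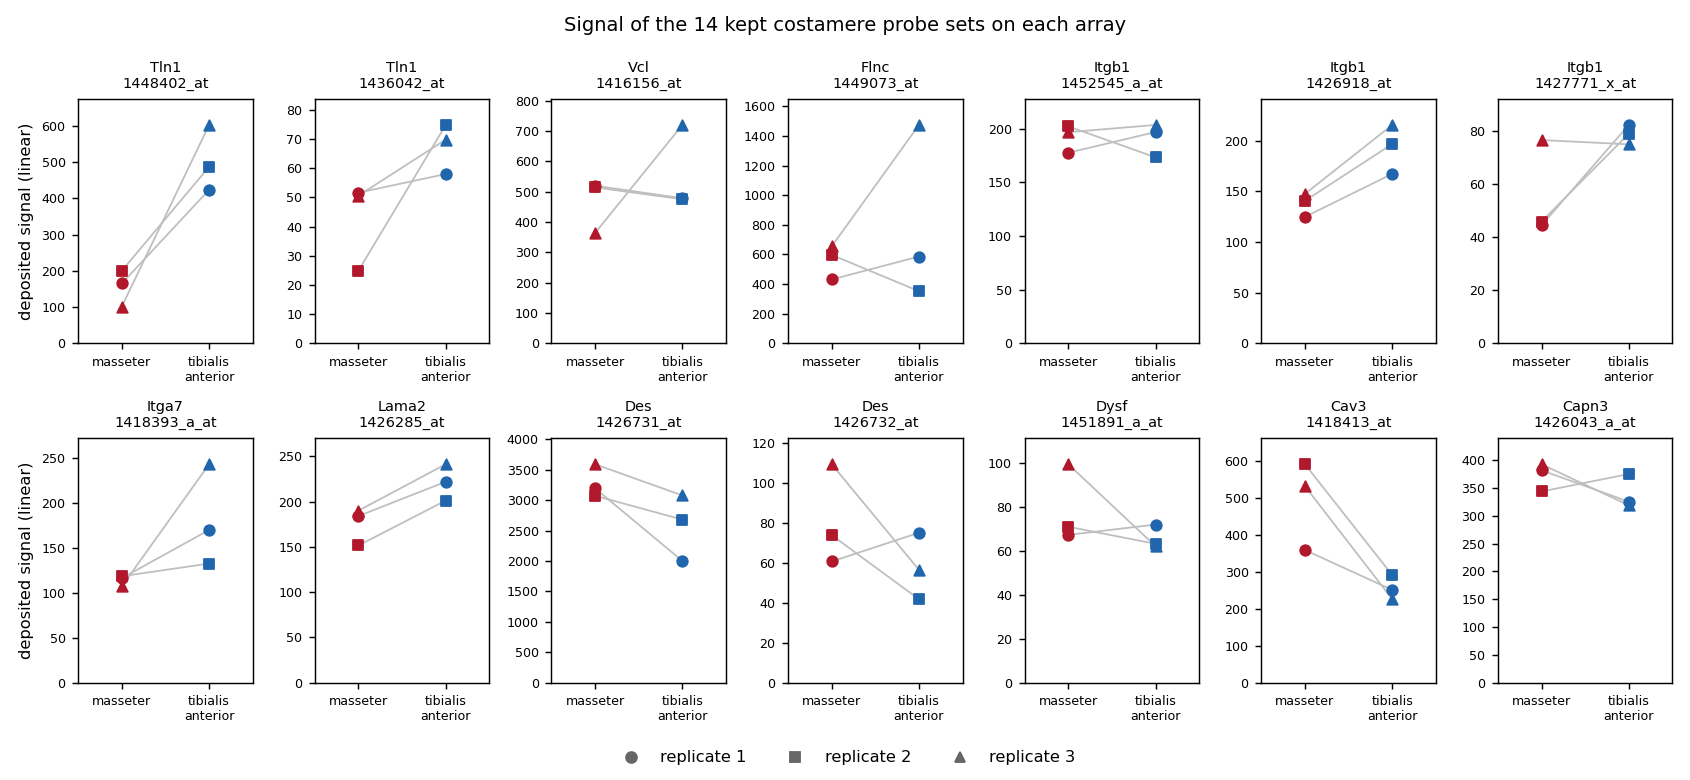
Deposited linear signal of each of the 14 probe sets above the filter level, 1 panel each, with masseter arrays in red at the left and tibialis anterior arrays in blue at the right, and symbols and grey lines marking arrays of the same replicate number. The tibialis anterior points of Tln1 1448402_at lie between 423.5 and 602.1, all above the masseter points, and the masseter points of Cav3 lie between 358.7 and 590.5, all above the tibialis anterior points.

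The stretches upstream of Tln1, Vcl and Cav3 are given because these genes stand at the low end, near the middle and at the high end of the members' differences. Each is the 250 bases before the annotated start of the gene in RefSeq's table (GRCm38.p6), written 5′ to 3′ on the strand of the gene. Capitals mark matches, on either strand, to the E-box CANNTG, to the M-CAT element CATTCC and to the CArG box and the MEF2 site. These are motifs of myogenic, TEAD, serum response and MEF2 factors.
Tln1, chr4:43562584-43562833, minus strand: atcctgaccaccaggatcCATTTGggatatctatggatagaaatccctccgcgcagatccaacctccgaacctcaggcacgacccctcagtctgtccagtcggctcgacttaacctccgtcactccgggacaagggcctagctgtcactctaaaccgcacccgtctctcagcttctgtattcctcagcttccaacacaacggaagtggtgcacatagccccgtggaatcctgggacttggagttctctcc
Vcl, chr14:20929148-20929397, plus strand: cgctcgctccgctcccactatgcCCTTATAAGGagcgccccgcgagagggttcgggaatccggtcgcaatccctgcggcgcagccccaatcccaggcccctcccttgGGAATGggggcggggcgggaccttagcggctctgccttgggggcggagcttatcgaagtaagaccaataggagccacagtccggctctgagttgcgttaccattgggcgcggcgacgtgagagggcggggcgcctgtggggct
Cav3, chr6:112459255-112459504, plus strand: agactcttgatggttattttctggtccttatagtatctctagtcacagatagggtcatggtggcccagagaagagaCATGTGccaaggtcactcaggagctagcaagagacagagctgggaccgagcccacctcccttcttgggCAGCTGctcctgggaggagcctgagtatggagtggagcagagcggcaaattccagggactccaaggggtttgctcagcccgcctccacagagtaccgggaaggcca
Tln1 held 1 E-box, from 232 to 227 bases before its start. Vcl held a CArG box, CCTTATAAGG, from 227 to 218 bases before its start, and an M-CAT element on the other strand, and it held no E-box. Cav3 held 2 E-boxes, the nearer of them CAGCTG from 106 to 101 bases before its start. Of 32851 upstream stretches of the same length in the table, 66.2% held an E-box, 12.6% an M-CAT element, 1.47% a CArG box and 2.92% a MEF2 site. Among the 12 stretches that matched 9 of the members, 6 held an E-box, 3 an M-CAT element, 2 a CArG box (Vcl and Lama2) and 1 a MEF2 site (Capn3). No motif overlapped another in the stretches shown, and a match is a description of the letters.

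Among the anchor proteins, Tln1 probe set 1448402_at had signals of 165, 200.2 and 102 in masseter 1, 2 and 3, against 423.5, 487 and 602 in tibialis anterior 1, 2 and 3. The groups did not overlap, and the lowest tibialis anterior array was above the highest masseter array. Tln1 was lower in the masseter by limma, with a log2 difference of -1.73 ± 0.26, a 95% interval from -2.33 to -1.14 and an adjusted p of 0.0223. On the linear scale the tibialis anterior had 3.33 times the signal of the masseter. The numbered pairs gave -1.36, -1.28 and -2.57, so each pair had the same sign and pair 3 differed most. The other Tln1 probe set, 1436042_at, had signals of 51.6, 24.9 and 50.6 in the masseter, against 58.0, 74.8 and 69.8 in the tibialis anterior. Its groups did not overlap either, but it did not pass (-0.74 ± 0.35, limma adjusted p = 0.424), and its 95% interval from -1.54 to 0.06 includes 0. Whether the difference itself is unequal between the Tln1 probe sets was not tested.

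The call of Tln1 1448402_at was lost under another estimate of the variance and in some fits with fewer arrays. With limma's variance prior fitted without the intensity trend the adjusted p was 0.233. In fits without the block it was 0.0566 without tibialis anterior 2 (-1.75) and 0.0647 without tibialis anterior 3 (-1.60). Over all probe sets those fits without an array called 65 and 58, against 138 without the block on all arrays. The Tln1 call held in the other 14 of the 17 alternatives, and its estimate lay between -1.96 and -1.32 over all of them. Masseter 1 stood apart from the other arrays in transcripts of salivary gland, with a summed signal of 34071 over 9 marker genes, against 3115 and 4439 on the other masseter arrays and 2373 to 4295 on the tibialis anterior arrays. It was not the only array with such signal. Masseter 2 lay above masseter 3 in Pip (564 against 24.2), Smr3a (488 against 42.1) and Amy1 (2140 against 862.5). In Smr2 1426180_a_at masseter 2 lay below masseter 3 (1185 against 2123). Without replicate 1 the Tln1 difference was -1.92 (limma adjusted p = 0.0143).

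Talin 1 is made by many cell types, so markers of other cells were read on the same arrays. The summed signal of 7 smooth muscle and pericyte markers was 4353 to 5234 in the masseter, against 5977 to 7476 in the tibialis anterior, and did not overlap, while 0 of their 12 probe sets passed in limma (0 higher and 3 lower at an unadjusted p under 0.05). The 3 lower ones read Rgs5 and Acta2. Rgs5 1417466_at was the largest part of the sum, with signals of 2791, 2855 and 2230 in the masseter, against 4169, 3693 and 2873 in the tibialis anterior. The median difference of the 12 was -0.09. Tagln gave -0.35, and Myh11, Cnn1 and Mylk gave 0.07 to 0.13, all with overlapping groups. The summed signal of 10 endothelial markers was 1644 to 1768 in the masseter, against 1596 to 2243 in the tibialis anterior, and that of 9 immune markers was 899 to 1333, against 779 to 1289. For both of these lists the groups overlapped and 0 probe sets passed in limma (1 lower endothelial and 1 higher immune probe set at an unadjusted p under 0.05). The B and T cell markers Cd79a and Cd3e lay under the filter level. The Gapdh control, whose ratio of 3′ over 5′ signal is a sign of RNA quality, gave 2.66 ± 0.23 in the masseter, against 1.94 ± 0.11 in the tibialis anterior (SD, n = 3 each, two-sided exact permutation p = 0.1, the lowest value possible for groups of 3). The Actb control gave 2.96 ± 0.34 in the masseter, against 2.70 ± 0.11 in the tibialis anterior (SD, n = 3 each, two-sided exact permutation p = 0.3). The part of any of these in the Tln1 difference was not tested. In whole muscle, fewer cells of a type and less RNA per cell cannot be told apart.

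Vinculin and filamin C did not pass, and in both the third tibialis anterior array stood above the others. Vcl (1416156_at) had signals of 519.8, 514 and 364 in the masseter, against 479, 475 and 720.3 in the tibialis anterior. Masseter 3 was the lowest array and tibialis anterior 3 the highest, and the groups overlapped (-0.25 ± 0.23, limma adjusted p = 0.723). Without replicate 3 the Vcl estimate was 0.12. Its other probe set, 1416157_at, reached at most 24.6 on any array and was not tested. Flnc (1449073_at) had signals of 431, 597 and 654 in the masseter, against 586, 352 and 1474 in the tibialis anterior. Both the lowest and the highest array of this probe set were limb arrays, whose log2 values had an SD of 1.05, against 0.32 in the masseter. The Flnc difference was -0.28 ± 0.31 (limma adjusted p = 0.776), with a 95% interval from -0.999 to 0.43, and it was 0.16 without replicate 3. The 95% interval of Vcl ran from -0.78 to 0.28, so the interval of neither gene reaches the estimate of Tln1 1448402_at, and the difference between the genes was not tested.

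**Figure D2:**
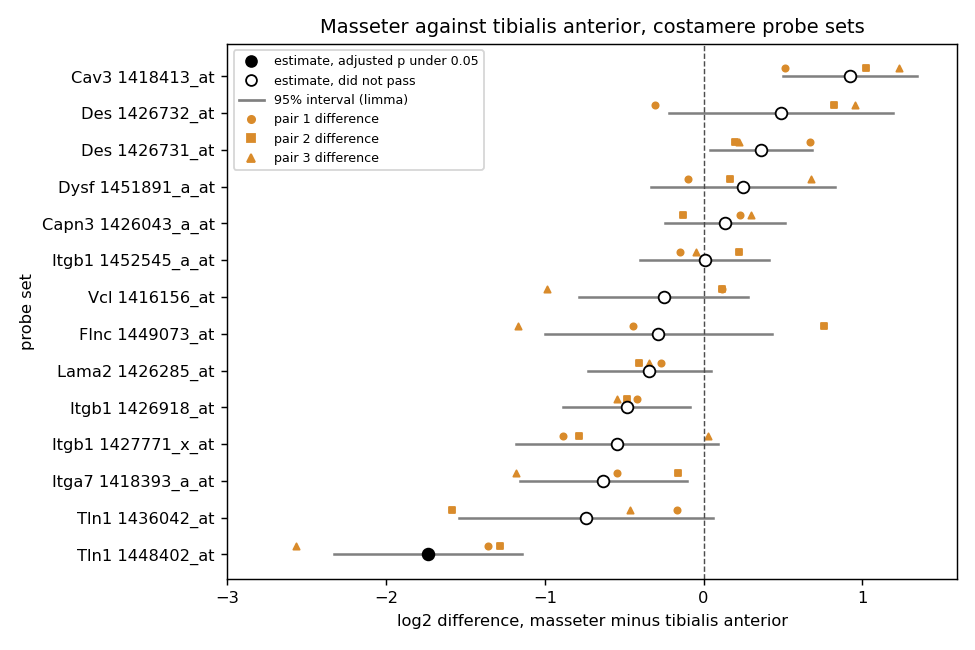
Log2 difference, masseter minus tibialis anterior, of the 14 probe sets above the filter level, with limma's 95% interval as a grey line and the differences of the 3 numbered pairs as small orange symbols. Tln1 1448402_at, the filled point at -1.73, is the one that passed, and Cav3 lies at 0.92.

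The integrin α7β1 pair is a laminin receptor of adult muscle fibres, and most of its probe sets were estimated lower in the masseter without passing. Itga7 (1418393_a_at), the muscle α subunit, had signals of 116.5, 119 and 107 in the masseter, against 170.3, 133 and 243.5 in the tibialis anterior. Its groups did not overlap, and the masseter arrays lay close together while tibialis anterior 3 was far above the other limb arrays. The difference was -0.63 ± 0.23 (limma adjusted p = 0.288), and it was -0.35 without replicate 3. Its numbered pairs gave -0.55, -0.16 and -1.18.

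Itgb1, the β1 subunit that pairs with α7 and with many other α chains, was read by 6 probe sets, of which 3 reached the filter level, with estimates from -0.55 to 0.01. Itgb1 1426918_at had signals of 125, 141 and 147 in the masseter, against 167, 197 and 215.5 in the tibialis anterior. Here the groups did not overlap and the numbered pairs were close to each other, at -0.42, -0.48 and -0.55, for a difference of -0.48 ± 0.17 (limma adjusted p = 0.280). Itgb1 1452545_a_at had signals of 178, 202 and 197 in the masseter, against 197, 173 and 204 in the tibialis anterior, which overlapped throughout (0.01 ± 0.18, limma adjusted p = 0.99). Its 95% interval ran from -0.40 to 0.41. Itgb1 1427771_x_at, which shares its source sequence with 1452545_a_at, had signals of 44.5, 45.9 and 76.6 in the masseter, against 82.3, 79.0 and 75.0 in the tibialis anterior. Only masseter 3 reached the level of the limb arrays (-0.55 ± 0.28, limma adjusted p = 0.462). The ending x_at marks a probe set that may also bind other transcripts, so this reading of Itgb1 is uncertain. The other 3 Itgb1 probe sets were not tested, since 1426920_x_at reached at most 28.2, 1438119_at at most 18.2 and 1426919_at at most 9.3 on any array.

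Lama2 encodes the α2 chain of the laminin that surrounds muscle fibres and is bound by this integrin. Its probe set 1426285_at had signals of 184, 152 and 190.1 in the masseter, against 222, 201 and 241 in the tibialis anterior. The groups did not overlap, and the pairs gave -0.27, -0.41 and -0.34. The difference of -0.34 ± 0.17 did not pass (limma adjusted p = 0.446), and its 95% interval ran from -0.73 to 0.05. Counting all members, 5 of the 14 probe sets had every masseter array below every tibialis anterior array, namely both of Tln1, 1 of Itgb1, Itga7 and Lama2, where 8.63% of all probe sets tested did so. In the opposite direction 1 of the 14, Cav3, had every masseter array above every tibialis anterior array, against 9.21% of all. The other 8 overlapped.

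Desmin, the intermediate filament protein of muscle, was estimated higher in the masseter by both of its probe sets, and neither passed. Des 1426731_at had signals of 3195, 3073 and 3591 in the masseter, against 2002, 2681 and 3078 in the tibialis anterior. The groups touched, since masseter 2 and tibialis anterior 3 were nearly equal, and each numbered pair was higher in the masseter, by 0.67, 0.20 and 0.22. The difference was 0.36 ± 0.14 (limma adjusted p = 0.311). The other probe set, Des 1426732_at, had signals of 60.7, 73.9 and 109 in the masseter, against 75.1, 41.8 and 56.5 in the tibialis anterior, with pair 1 of the opposite sign (0.49 ± 0.31, limma adjusted p = 0.566). The summed signal of 10 fibre markers, such as Acta1 and Ckm, was 112979 to 143105 in the masseter, against 145705 to 151368 in the tibialis anterior. Of their 15 probe sets 1 passed, that of the IIB myosin Myh4, lower in the masseter (-1.47 ± 0.14, limma adjusted p = 0.00265). Myh4 is part of the sum, with signals of 5649, 7072 and 8100 in the masseter, against 20228, 17512.5 and 19398 in the tibialis anterior. Acta1 (-0.09) and Ckm (-0.13) overlapped between the muscles and did not pass. At an unadjusted limma p under 0.05 there were 2 higher and 3 lower fibre probe sets.

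Caveolin 3 was read by 1 probe set, 1418413_at, with signals of 359, 590.5 and 531 in the masseter, against 251, 291 and 226 in the tibialis anterior. The groups did not overlap, and masseter 1 was the lowest of the jaw arrays. The difference was 0.92 ± 0.18, with a 95% interval from 0.50 to 1.35, and it did not pass (limma unadjusted p = 0.000962, adjusted p = 0.0631). Pairs 1, 2 and 3 gave 0.52, 1.02 and 1.23. Without replicate 1, the pair that holds the masseter array with the highest summed salivary signal, the Cav3 difference was 1.13 and passed (limma adjusted p = 0.0222). It also passed with array quality weights (0.98, adjusted p = 0.0166) and, in a fit without the block, without masseter 1 (1.14, adjusted p = 0.0354), so it passed in 3 of 17 alternatives. The sign was the same in all of them. The part of salivary tissue in masseter 1 in these values was not tested.

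**Figure D3:**
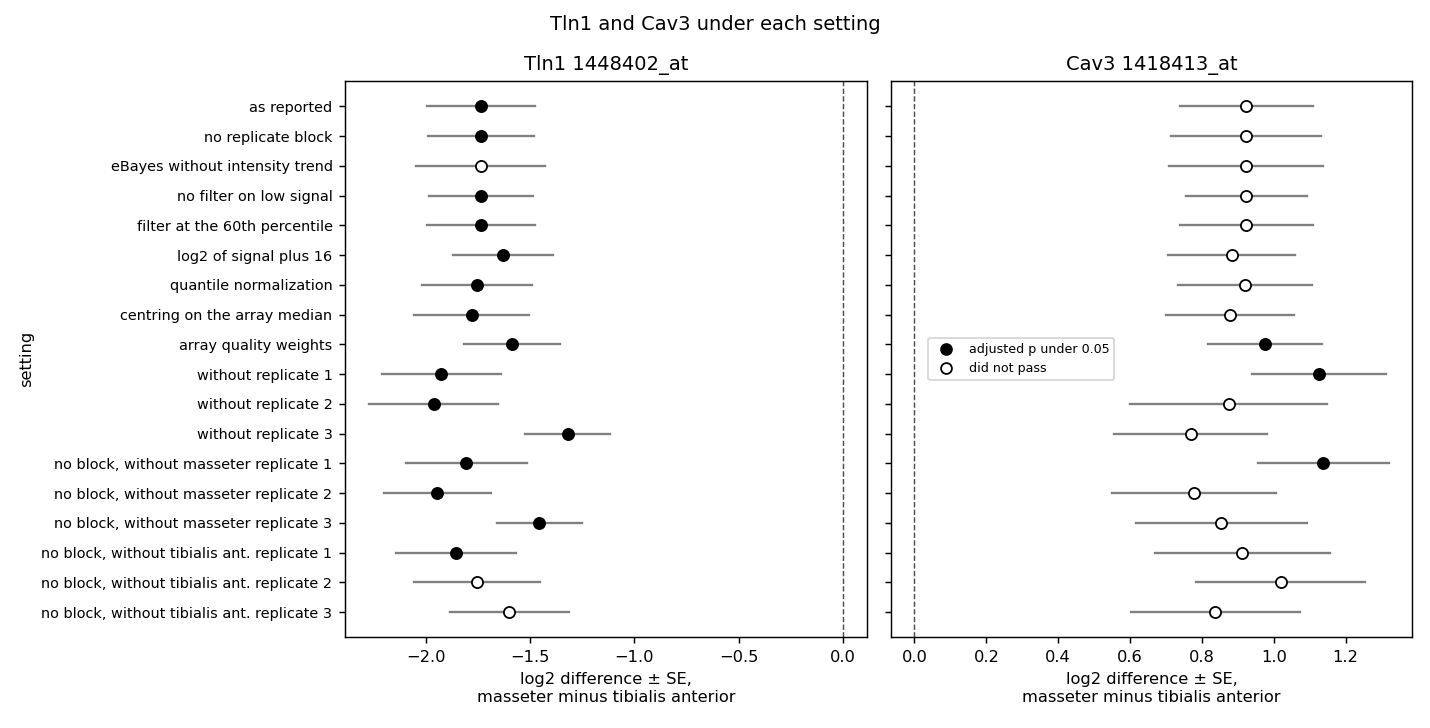
Log2 difference ± SE, masseter minus tibialis anterior, of Tln1 1448402_at at the left and Cav3 1418413_at at the right, as reported and under each of 17 alternatives, with filled points where the adjusted p was under 0.05. Tln1 stays between -1.96 and -1.32 and Cav3 between 0.77 and 1.14.

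Dysferlin and calpain 3 did not pass, and for both the groups overlapped. Dysf (1451891_a_at) had signals of 67.4, 71.1 and 99.6 in the masseter, against 72.1, 63.3 and 62.2 in the tibialis anterior. Masseter 3 stood above 5 overlapping arrays (0.25 ± 0.25, limma adjusted p = 0.752). Capn3 (1426043_a_at) had signals of 382, 344 and 393 in the masseter, against 325, 375 and 319 in the tibialis anterior. Its groups overlapped through masseter 2 and tibialis anterior 2 (0.14 ± 0.17, limma adjusted p = 0.798). The 95% intervals ran from -0.33 to 0.83 for Dysf and from -0.24 to 0.51 for Capn3, so a change of 2-fold in either direction lies outside both.

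Further genes of the same structures were read from lists of their roles. Of 34 further integrin adhesion genes, which encode integrin subunits and the kinases, adaptors and actin binders of adhesions, 26 reached the filter level with 41 probe sets. By limma 1 of the 41 passed, higher in the masseter, and 40 did not, with 6 higher and 6 lower at an unadjusted p under 0.05 and a median of -0.03. The one that passed read Itgb6, an integrin subunit known mainly from epithelia, with signals of 101, 162 and 142 in the masseter, against 54.2, 66.6 and 55.8 in the tibialis anterior. The groups did not overlap, and masseter 1, where the summed salivary signal was highest, was the lowest masseter array for Itgb6. The part of salivary tissue in the Itgb6 values was not tested. The Itgb6 difference was 1.18 ± 0.22 (limma adjusted p = 0.0487). This call held in 4 of 17 alternatives, with adjusted p-values between 0.0143 and 0.243, and the adjusted p was 0.0540 without the block. The other Itgb6 probe set did not reach the filter level.

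In the remaining lists no probe set passed in limma. Of the laminin and basement membrane genes, 0 of 16 probe sets from 11 genes passed (1 higher and 0 lower at an unadjusted p under 0.05), with a median of -0.03. The smallest p was that of Nid1, nidogen, which joins laminin to collagen (0.52 ± 0.16, limma adjusted p = 0.219), while its other probe set gave -0.58 ± 1.16. Of the intermediate filament genes, 0 of 18 probe sets from 10 genes passed (1 higher and 0 lower unadjusted), with a median of 0.13. The smallest p was that of Vim, vimentin, the filament of mesenchymal cells (0.62 ± 0.19, limma adjusted p = 0.212), while its other probe sets gave 0.05 and -0.21. Of the membrane repair and caveola genes, 0 of 20 probe sets from 13 genes passed (4 higher and 1 lower unadjusted), with a median of 0.15. The smallest p was that of Anxa6, annexin A6, which gathers at membrane wounds (0.74 ± 0.21, limma adjusted p = 0.175), and its other probe sets gave 0.50 and 0.78. Of the other calpain genes, 0 of 12 probe sets from 8 genes passed (1 higher and 0 lower unadjusted), with a median of 0.10. The smallest p was that of Capn2, the large subunit of m-calpain (0.35 ± 0.15, limma adjusted p = 0.367).

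**Figure D4:**
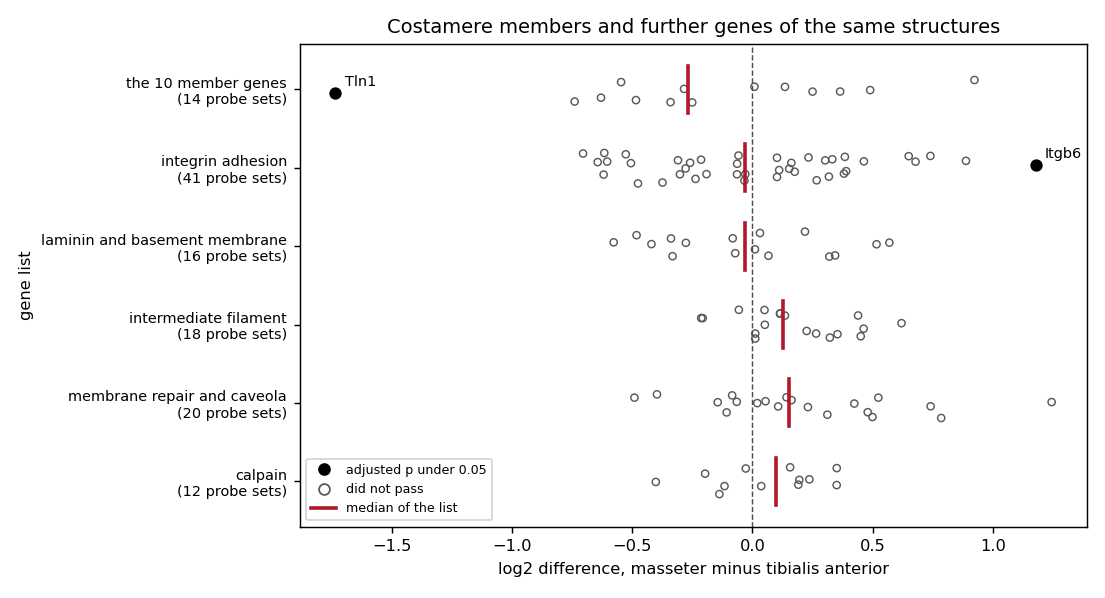
Log2 difference, masseter minus tibialis anterior, of each probe set above the filter level for the 10 members and for 5 lists of further genes, with the median of each list as a red bar and filled points for an adjusted p under 0.05. Tln1 and Itgb6 are the filled points, and the medians lie between -0.27 for the members and 0.15 for membrane repair and caveola genes.

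Markers of slow fibres and of other tissues were compared between the muscles too. Of the 13 probe sets of 8 slow-fibre markers, 6 were lower in the masseter in limma, those of Myl3, Myl2 and Car3, and 0 were higher. At an unadjusted limma p under 0.05 there were 0 higher and 8 lower slow-fibre probe sets. The groups of Myh7 (-2.29, limma adjusted p = 0.0671) and Tnnc1 (-1.04, limma adjusted p = 0.0749) did not overlap, and neither passed. Tnni1 (-1.11) and Tnnt1 (-0.54) overlapped between the muscles. Atp2a2 was estimated higher in the masseter (0.23, 0.32 and 0.03) and did not pass. The summed slow-fibre signal was 4134 to 5518 in the masseter, against 16315 to 21364 in the tibialis anterior. Most of it was Car3 1449434_at, with signals of 4799, 3667 and 3511 in the masseter, against 17841, 13741 and 12891 in the tibialis anterior. Of 11 fibroblast probe sets 1 was higher, that of Dpt, of 7 adipocyte probe sets 1 was higher, that of Adipoq, and of 6 salivary probe sets 2 were higher, those of Pip and Smr3a, with 0 lower in these lists. Of 17 alternatives, Dpt passed in 10, Adipoq in 9, Pip in 8 and Smr3a in 7. The groups overlapped for Pip, with signals of 8071, 564 and 24.2 in the masseter, against 72.4, 20.7 and 3.6 in the tibialis anterior. They overlapped for Smr3a too, with 10656, 488 and 42.1, against 376, 58.7 and 14.5. At an unadjusted p under 0.05 there were 2 higher and 1 lower fibroblast, 3 higher and 0 lower adipocyte, and 3 higher and 1 lower salivary probe sets. The lower ones read the collagen chain Col1a1 (-1.26, limma adjusted p = 0.2), whose groups did not overlap, and Smr2 (-0.64, limma adjusted p = 0.327), and neither passed. The salivary markers Prol1, Cldn10, Lpo and Dcpp1, the adipocyte markers Lep and Pparg and the neuronal marker Nefl lay under the filter level. Summed signals of the 8 fibroblast markers were 6307 to 6947 in the masseter, against 4910 to 6321 in the tibialis anterior, and those of 6 adipocyte markers were 4195 to 6087 in the masseter, against 3037 to 5025 in the tibialis anterior. Most of the adipocyte sum was Fabp4 1417023_a_at, with signals of 5106.5, 3791 and 4285 in the masseter, against 3514, 2772 and 4826 in the tibialis anterior. That probe set gave 0.27, and the other Fabp4 probe sets gave -0.28, -0.24 and 0.19. All had overlapping groups and none passed. Of the 9 nerve and Schwann cell probe sets 0 passed in limma (5 higher and 0 lower at an unadjusted p under 0.05), and the summed signal of 5 such markers was 996 to 1115 in the masseter, against 601 to 758 in the tibialis anterior. The 5 higher ones read only Mbp and Pmp22, several of them the same gene, and these genes made up most of the sum. Sox10 gave 0.49 and -0.20 and S100b gave 0.57, all with overlapping groups. The part of fibre type or of these tissues in the values of the costamere genes was not tested.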

How the data were processed

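Total RNA of 6 muscles was amplified, labelled and hybridised to short-oligonucleotide arrays, 1 per sample, per the labels' protocols. The authors deposited intensity values on a linear scale, 1 for each probe set on each array. MAS5 and GCOS are named in the submitters' processing notes, with settings not given in the sources used here. The 2% trimmed mean was 150.1 on every array, so no scaling was added. Probe sets were named from the platform annotation when it gave 1 symbol.

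Signals under 1 were set to 1 and taken to log2. The 64 control probe sets were left out, and probe sets whose mean log2 signal over all arrays was at or above the 40th percentile of the rest (log2 4.84) were tested, 13576 in all. Differences between the muscles were tested in R 4.3.3 with limma 3.58.1 (lmFit, then trended eBayes, two-sided). The fit had the replicate number as a fixed block because the study describes paired comparisons. The study's own test, SAM, was not run here. The fit was tested on simulated data. Each control ratio was tested by exact permutation over arrays. A motif search covered all upstream stretches of RefSeq's promoter table.

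The text names every member probe set, each further gene that passed or, in a list where none passed, the one with the smallest p, and markers that passed. Markers given with values that did not pass, such as Col1a1 and Smr2, and the genes under Other observations were chosen after their values were seen. Members and lists were chosen with earlier results of these data known. The arrays number 3 per muscle, which limits precision, and faint signals lie close to background. Alternatives changed the block, the variance prior, the filter, the floor, the scaling, array weights and the arrays included.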

Additional observations from a re-analysis of the deposited data

How the results depend on the processing

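The number of probe sets past the threshold was 160 and the number of member probe sets 1. With eBayes without an intensity trend these were 13 and 0, and with array quality weights 391 and 2. Leaving out pairs or single arrays gave 45 to 173 probe sets and 0 to 2 member probe sets. The 2 are Tln1 lower and Cav3 higher. Without filter, 18 member probe sets were tested and Tln1 1448402_at alone passed. With the filter at the 60th percentile 11 were tested.

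Of 235 values of the 14 member probe sets under the alternatives, 10 reversed in sign, all in estimates that did not pass. The Itgb1 1452545_a_at estimate of 0.01 was -0.023 with quantile normalization, -0.036 with centring on the array median, and -0.099 to 0.087 with arrays left out. Flnc was 0.10 with array quality weights and -0.81 to 0.28 with arrays left out, and Vcl was -0.44 to 0.12 with arrays left out. The cause was not tested. Without the replicate block 138 probe sets passed, Tln1 1448402_at among them (limma adjusted p = 0.0160), and no call of a member changed. Deviations from the muscle means correlated at 0.0392, 0.152 and 0.101 between arrays numbered 1, 2 and 3, over probe sets. Between arrays of different numbers the correlations ran from -0.157 to 0.0468. Masseter 1 correlated slightly better with tibialis anterior 2 (0.0412) than with its own number. All of these correlations are weak, so the data do not settle whether the numbers pair the samples. Precision was limited by the 3 arrays per muscle and by signals close to background.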

Other observations

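Some further adhesion and membrane genes, chosen after their values were seen, had several probe sets with the same order of the muscles, and none of them passed in limma. Cd151, a tetraspanin that binds laminin-binding integrins, had signals of 1410, 1236 and 1020 in the masseter, against 569.6, 675 and 729 in the tibialis anterior, on probe set 1437670_x_at (0.89 ± 0.18, limma adjusted p = 0.0632). On 1451232_at Cd151 had signals of 578, 508 and 509 in the masseter, against 308, 349 and 298 in the tibialis anterior (0.74 ± 0.16, limma adjusted p = 0.0788). The other Cd151 probe sets tested gave differences of 0.46 (1424093_x_at), 0.39 (1456085_x_at) and -0.26 (1427525_at). Those ending in x_at, 1437670_x_at among them, may also bind other transcripts, so these readings of Cd151 are uncertain. Itgb5, an integrin subunit that binds vitronectin, had the opposite order, with signals of 464, 437 and 426 in the masseter, against 741, 729 and 693 in the tibialis anterior, on 1417533_a_at (-0.70 ± 0.14, limma adjusted p = 0.0655). The other Itgb5 probe sets gave differences of -0.62 (1417534_at), -0.60 (1456195_x_at) and -0.28 (1456133_x_at), and the same limit holds for those ending in x_at.

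None of the other caveolin and cavin genes passed in limma, and their estimates lay on both sides of 0. Cav2 gave 0.42 and 0.16, Cavin2 0.23 and 0.14, Cavin3 0.05, and Cavin1 -0.11 and -0.14, and in all of these the groups overlapped. Cavin4, a caveolar coat protein of muscle, had signals of 553, 458 and 636 in the masseter, against 949.8, 509 and 925 in the tibialis anterior (-0.49 ± 0.17, limma adjusted p = 0.249). Cav1, the caveolin of endothelium and fat, had signals of 2027, 2223 and 1789 in the masseter, against 2465, 1942 and 2008 in the tibialis anterior (-0.08 ± 0.14, limma adjusted p = 0.860). Whether Cav3 differed from these genes was not tested.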
